A study of Mus musculus with 66 samples.

Results

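Chromatin accessibility of EN and CV organoids was compared in 8 of the 66 libraries of the series, 4 ATAC-seq libraries of EN organoids and 4 of CV organoids, over every region of the union of peaks. Both cultures were mouse small intestinal organoids of an Lgr5 GFP-DTR/+ line, in which 1 copy of Lgr5 carries a fluorescent and a toxin receptor cassette. CV organoids were grown in ENR, a medium with EGF, Noggin and 5% R-Spondin, to which 3 µM CHIR99021 and 1 mM valproic acid had been added. EN organoids were grown in the same medium without R-Spondin, CHIR99021 or valproic acid. The cultures were also kept in their media for different times, so the effects of R-Spondin, of the pair of compounds and of time cannot be told apart between EN and CV. The 4 ATAC libraries of ENR organoids, which differ from CV by the compounds and from EN by R-Spondin, are given beside them where they help to place a value. Nothing in the labels says whether the 4 libraries of a culture came from separate cultures, so p-values measure the spread between these libraries, which may be technical.

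Intestinal stem cells at the crypt base depend on Wnt signals, which R-Spondin strengthens and which CHIR99021 mimics by blocking the kinase GSK3. Valproic acid inhibits histone deacetylases. Cells that leave the crypt lose the Wnt signal and mostly become enterocytes, the absorptive cells that carry digestive enzymes and transporters on a brush border. ATAC-seq uses the transposase Tn5, which inserts adapters into DNA that nucleosomes leave free, so that open promoters and enhancers collect reads. Nuclear receptors of the HNF4 family are known regulators of enterocyte genes, and TCF and LEF proteins bring the Wnt signal to DNA.

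The sequences below were read from the mouse reference NCBIM37, the same build as mm9, on its forward strand, and capitals mark matches to the short motifs that were searched on both strands. The Lgr5, Lmo4 and Peg3 windows are the most accessible called region around Lgr5, the largest rise and the largest fall. The others were chosen after their values were seen, because they rose and hold a match to the HNF4 motif CAAAGTNCA (the TCF/LEF motif searched was CTTTGAT). Each is the region itself or, for longer regions, its central 300 bp, with the coordinates of the deposited table taken as counted from 1.
Lgr5 chr10:114942676-114942975: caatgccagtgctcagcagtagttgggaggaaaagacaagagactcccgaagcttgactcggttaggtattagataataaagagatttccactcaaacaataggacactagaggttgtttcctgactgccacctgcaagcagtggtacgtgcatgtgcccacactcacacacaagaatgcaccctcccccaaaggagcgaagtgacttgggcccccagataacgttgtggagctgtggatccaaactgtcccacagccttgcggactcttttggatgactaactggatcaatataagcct
Lmo4 chr3:143965661-143965960: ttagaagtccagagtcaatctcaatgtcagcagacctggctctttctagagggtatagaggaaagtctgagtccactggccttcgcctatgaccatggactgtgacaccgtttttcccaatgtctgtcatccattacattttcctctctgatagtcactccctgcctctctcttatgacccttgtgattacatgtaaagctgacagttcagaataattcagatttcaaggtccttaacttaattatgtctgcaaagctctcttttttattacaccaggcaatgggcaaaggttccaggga
Peg3 chr7:6681144-6681443: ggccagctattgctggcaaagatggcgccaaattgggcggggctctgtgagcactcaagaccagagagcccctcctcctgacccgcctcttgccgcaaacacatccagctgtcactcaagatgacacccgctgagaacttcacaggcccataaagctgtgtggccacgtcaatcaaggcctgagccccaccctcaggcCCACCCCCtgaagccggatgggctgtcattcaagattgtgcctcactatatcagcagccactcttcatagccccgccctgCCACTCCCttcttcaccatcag
Ggt1 chr10:75028783-75029059: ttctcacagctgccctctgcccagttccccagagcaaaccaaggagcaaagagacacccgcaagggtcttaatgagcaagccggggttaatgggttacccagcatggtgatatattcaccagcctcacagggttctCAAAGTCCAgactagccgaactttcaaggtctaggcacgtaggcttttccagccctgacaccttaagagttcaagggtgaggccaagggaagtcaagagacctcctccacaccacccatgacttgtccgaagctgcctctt
Treh chr9:44481159-44481457: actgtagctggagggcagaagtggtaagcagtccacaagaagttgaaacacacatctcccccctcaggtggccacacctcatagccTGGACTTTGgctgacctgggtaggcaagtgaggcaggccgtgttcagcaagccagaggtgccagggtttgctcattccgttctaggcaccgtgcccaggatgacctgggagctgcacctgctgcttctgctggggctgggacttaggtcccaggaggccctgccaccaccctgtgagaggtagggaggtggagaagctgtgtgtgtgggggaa
Adh4 chr3:138078161-138078453: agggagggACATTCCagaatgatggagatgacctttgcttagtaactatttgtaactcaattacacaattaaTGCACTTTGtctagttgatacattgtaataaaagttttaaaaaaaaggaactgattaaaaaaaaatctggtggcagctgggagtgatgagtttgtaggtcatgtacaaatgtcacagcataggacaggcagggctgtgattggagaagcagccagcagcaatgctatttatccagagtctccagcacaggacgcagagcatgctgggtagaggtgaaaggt
Sdccag8 chr1:178943495-178943794: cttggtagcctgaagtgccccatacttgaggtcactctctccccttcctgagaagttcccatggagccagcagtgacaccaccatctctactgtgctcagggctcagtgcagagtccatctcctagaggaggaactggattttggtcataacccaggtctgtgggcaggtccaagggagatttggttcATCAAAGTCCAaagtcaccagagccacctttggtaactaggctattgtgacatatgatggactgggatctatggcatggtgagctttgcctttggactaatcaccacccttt
Esrrg chr1:189650611-189650910: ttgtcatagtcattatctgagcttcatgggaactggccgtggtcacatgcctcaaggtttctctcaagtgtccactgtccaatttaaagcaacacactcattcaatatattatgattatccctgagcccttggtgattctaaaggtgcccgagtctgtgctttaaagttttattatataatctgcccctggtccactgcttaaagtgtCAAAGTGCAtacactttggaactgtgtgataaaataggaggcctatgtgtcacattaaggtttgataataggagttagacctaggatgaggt
Lgr5 chr10:115061980-115062279: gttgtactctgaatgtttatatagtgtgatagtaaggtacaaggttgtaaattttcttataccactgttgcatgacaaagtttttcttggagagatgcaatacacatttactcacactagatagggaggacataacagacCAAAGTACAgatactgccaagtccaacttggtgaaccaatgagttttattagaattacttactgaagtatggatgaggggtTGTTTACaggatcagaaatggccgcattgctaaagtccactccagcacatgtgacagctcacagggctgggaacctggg
The Ggt1, Treh and Adh4 windows are promoters that rose in EN, and each holds 1 HNF4 match. The Adh4 window also holds a match to the TEAD motif ACATTCC near its start. The Esrrg window lies in an intron and holds 1 HNF4 match, and the second Lgr5 window, intergenic, holds 1 HNF4 match and 1 match to the FOX motif TGTTTAC. The Sdccag8 window lies in an intron of that gene, and its capitals hold overlapping TCF/LEF and HNF4 matches, since an HNF4 match preceded by AT also reads as the TCF/LEF motif on the other strand. The Peg3 window holds 2 matches to the KLF/SP motif GGGNGTGG, and the first Lgr5 window and the Lmo4 window hold 0 matches to any of the 12 motifs searched.

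For each region the authors deposited a read count that they normalized between libraries and rounded to whole numbers, called the score here. A difference is given as EN minus CV of the mean log2(score + 1), with its standard error (SE). Of 94469 regions, 51385 had a mean score of at least 5 over the 8 libraries and were tested with limma's moderated test, and a region was called at a Benjamini-Hochberg adjusted p under 0.01. In EN, 10293 regions were higher (20.0% of those tested) and 6263 lower (12.2%), and 34829 were not called. At least a 2-fold difference was seen in 7315 of the higher regions (14.2%) and 4929 of the lower ones (9.59%). Changes of at least 4-fold numbered 2503 up and 1391 down, and of at least 8-fold 391 up and 181 down. The 4 EN values lay all above the 4 CV values in 9952 of the regions called higher, and all below in 6133 of those called lower. Over all 51385 tested regions, called or not, they lay all above in 12163 and all below in 8360. The calls were made from the same values, so separation within called regions is no separate support for them.

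The split between rises and falls depended on scaling. Summed scores ranged from 1752385 to 1840402 in CV and from 1993594 to 2109261 in EN, 1.15 times as much on average, without overlap (exact permutation test, two-sided, p = 0.0286, the smallest that 4 against 4 allows). The median difference over all tested regions was 0.12, and rises were 62.2% of calls. After scaling to equal library sums the median was -0.07 and rises were 46.7% of calls (7609 up, 8678 down), and after quantile normalization they were 49.2%. Of the regions called lower, 6263 remained called lower under both scalings, and 7609 and 7928 of those called higher remained so. Both scalings lowered EN scores relative to CV, so regions already called lower could hardly lose their calls. The asymmetry follows from the scaling and does not show that falls are firmer than rises. In such bulk libraries, fewer cells of a type and less accessibility per cell cannot be told apart. A principal component analysis placed CV and EN apart on the first component (54.8% of the variance), and the second (26%) was highest in replicate 1 of both cultures.

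**Figure D1:**
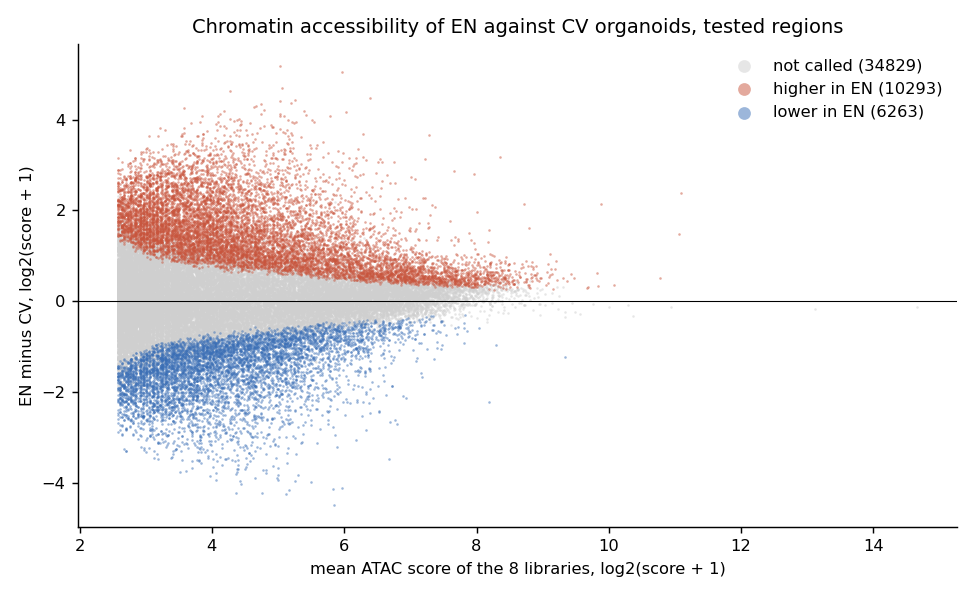
Difference between EN and CV (vertical axis, log2(score + 1)) against the mean score of the 8 libraries (horizontal axis, log2(score + 1)) for each of the 51385 tested regions. Red points are the 10293 regions called higher in EN and blue points the 6263 called lower, and the smallest difference that was called shrinks as the mean score grows.

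Changes were concentrated away from start sites. Of the regions further than 500 bp from an annotated start site, 18% rose and 10.9% fell at least 2-fold, against 3.33% and 5.83% of the 13228 within 500 bp. Regions within 500 bp made up 25.8% of all tested regions (95% Wilson interval 25.4 to 26.2), 6.03% of the regions higher by at least 2-fold (5.51 to 6.6) and 15.7% of those lower by at least 2-fold (14.7 to 16.7). At promoters, 2-fold falls outnumbered 2-fold rises, 771 against 441, while in introns 2-fold rises outnumbered falls, 3285 against 1695. Without the 2-fold limit, rises outnumbered falls at promoters too, 1937 against 1353. The contrast by position was also smaller then. Of the regions further than 500 bp away, 21.9% were called higher and 12.9% lower, against 14.6% and 10.2% within 500 bp. The share of the summed score within 500 bp of a start site was 49.1, 52.5, 52.1 and 50.2% in EN and 53.2, 53.7, 52.4 and 51.9% in CV. The groups overlapped, and the difference of -1.80 percentage points was not called (exact permutation test, two-sided, p = 0.143). Called regions also lay more often beside regions called the same way. The nearest tested neighbour within 50 kb was called higher for 36.9% of the regions called higher. It was called higher for 9.3% of those called lower and for 17.5% of those not called. In the same order, it was called lower for 5.37%, 26.1% and 11.4%. Some neighbours nearly touch, such as a Dpp4 region that ends at 62206714 and the next, which starts at 62206792. The part of such closely spaced regions in these shares was not tested.

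Promoters of stem cell and Wnt target genes were called lower in EN more often than higher. Each gene's promoter was taken as its tested region of highest mean score within 500 bp of a start site. Of 26 such promoters in the list, 11 were lower (42.3%) and 2 higher (7.69%). Of all 13228 tested regions within 500 bp of a start site, 10.2% were lower and 14.6% higher. This background of all promoter regions, used below too, was not limited to 1 region per gene. For Lgr5, the R-Spondin receptor that marks these stem cells, the scores were 57, 45, 41 and 57 in CV, 36, 41, 60 and 53 in ENR and 28, 15, 11 and 13 in EN. All 4 EN values lay below CV, with a difference of -1.59 (SE 0.25, limma adjusted p = 0.00022). Ascl2, a transcription factor of the stem cell state, had 68, 55, 56 and 71 in CV and 14, 24, 13 and 14 in EN, a difference of -1.91 (SE 0.20, adjusted p = 1e-05). Sox9, a crypt transcription factor, went from 59, 49, 55 and 53 to 20, 19, 11 and 15 (-1.70, SE 0.20, adjusted p = 1.8e-05). In ENR, Ascl2 averaged 53.0 and Sox9 57.2, near the CV means of 62.5 and 54.0. Lef1, a Wnt effector, was different in this respect, with 44, 38, 40 and 30 in CV, 14, 18, 19 and 19 in ENR and 3, 5, 8 and 10 in EN. Its EN and CV values did not overlap (-2.47, SE 0.29, adjusted p = 2.1e-05). Tnfrsf19, a Wnt target receptor whose promoter holds a TCF/LEF match, had 35, 30, 25 and 36 in CV, 15, 11, 9 and 14 in ENR and 11, 5, 10 and 5 in EN. Smoc2, Axin2, Cd44, Myc, Nkd1 and Sp5 were the other promoters called lower. Lgr4, a receptor for R-Spondin, and Rgmb were higher at their promoters by 0.48 and 0.39, but both calls were lost under library sum scaling (limma adjusted p = 0.098 and 0.16), and also under quantile normalization (0.35 and 0.65) and median ratio scaling (0.027 and 0.045).

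The falls were not limited to promoters. Regions were linked to the protein-coding gene with the nearest start site within 50 kb, and Axin2, which encodes a negative regulator and direct target of Wnt signalling, had the most regions called lower of all genes, 10 of 11. Its promoter had scores of 102, 95, 97 and 107 in CV, 127, 117, 119 and 134 in ENR and 32, 44, 47 and 45 in EN. The steepest of its falls lay in an intron, where CV had 43, 36, 33 and 38, ENR 33, 31, 27 and 35, and EN 2, 1, 2 and 2 (-3.82, SE 0.24, limma adjusted p = 2.6e-07). Next came Hk2, a hexokinase, with 9 of 13, then Lmo7 and Vgll4, a cofactor of TEAD proteins, with 8 of 23 and 8 of 12. Rnf43, a Wnt feedback ubiquitin ligase, had 7 of 9, although its promoter itself was not called (-0.61, adjusted p = 0.013). Phlda1, Adamts1, Kazn, Tex14 and 9130008F23Rik also had 7 each.

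Around Lgr5, 9 regions were tested within 50 kb of an annotated start site, 6 of them lower, 1 higher and 2 not called. The highest of them, the intronic region of chromosome 10 whose sequence is shown first above (114942400 to 114943253), had scores of 172, 156, 143 and 164 in CV, 206, 186, 206 and 224 in ENR and 47, 26, 42 and 37 in EN. ENR lay above CV and EN far below both, and the difference was -2.06 (SE 0.17, limma adjusted p = 1.4e-06). The 1 region that rose, the second Lgr5 sequence above, lay in intergenic sequence 37294 bp upstream of the start site and holds an HNF4 match. It had 15 in each CV library, 23, 24, 36 and 29 in ENR and 49, 42, 77 and 78 in EN (1.92, SE 0.21, adjusted p = 1.3e-05).

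Enterocyte genes moved the other way. Of 23 promoters of brush border genes, 9 were higher and 0 lower, of 26 promoters of nutrient carriers 13 and 0, and of 26 promoters of fat absorption genes 9 and 1, the last being Scarb1. These were 39.1%, 50.0% and 34.6% higher, against the 14.6% of all promoter regions. Ggt1, a brush border enzyme that breaks down glutathione, had promoter scores of 1, 2, 0 and 2 in CV, 6, 6, 5 and 3 in ENR and 35, 26, 20 and 28 in EN (3.75, SE 0.38, limma adjusted p = 6.6e-06). Slc6a19, the main carrier of neutral amino acids, had 2, 2, 3 and 1 in CV and 20, 35, 18 and 37 in EN (3.22, SE 0.32, adjusted p = 6.1e-06). Slc23a1, a vitamin C carrier, went from 7, 9, 7 and 9 to 77, 96, 54 and 83, and its ENR scores of 18, 23, 16 and 12 lay between. Apoa4, an apolipoprotein of chylomicrons, had 6, 6, 5 and 4 in CV, 16, 21, 13 and 17 in ENR and 49, 55, 30 and 49 in EN (2.88, SE 0.23, adjusted p = 1.2e-06). Pck1, an enzyme of glucose and glycerol synthesis, rose from 65, 61, 57 and 67 to 237, 233, 277 and 327 (2.07, SE 0.12, adjusted p = 1.8e-07). None of these groups overlapped. Smaller rises were called at Vil1, which bundles actin in microvilli (0.69, SE 0.13, adjusted p = 0.0007), Anpep, an aminopeptidase (1.82, SE 0.30, adjusted p = 0.00031), and Ptk6, a kinase of differentiating epithelium (1.74, SE 0.24, adjusted p = 8.5e-05).

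**Figure D2:**
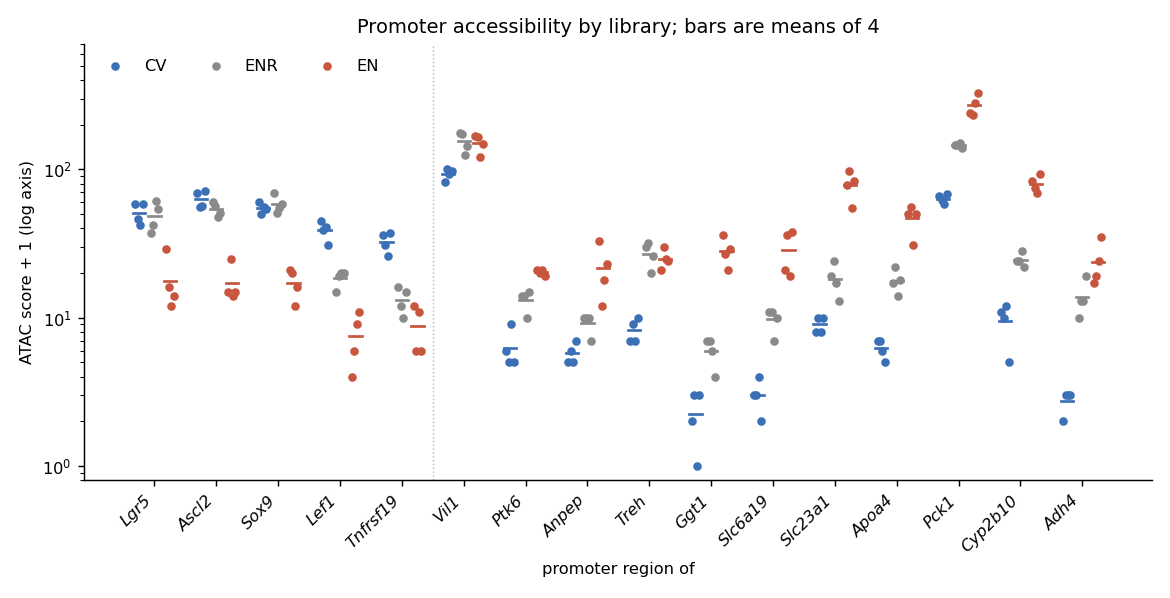
ATAC scores plus 1 (log axis) at the promoters of 5 stem cell or Wnt target genes, left of the dotted line, and 11 genes of enterocytes and detoxification, right of it. Points are libraries (blue CV, grey ENR, red EN) and bars the means of 4. EN lies below CV in the first group and above it in the second, and ENR is near CV at Lgr5, Ascl2 and Sox9 but near EN at Vil1 and Treh.

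Not every marker promoter followed. Alpi, intestinal alkaline phosphatase, had 1 tested region within 50 kb, its promoter, with 10, 8, 7 and 10 in CV and 11, 10, 16 and 16 in EN. The values overlapped and the region, which holds an HNF4 match, was not called (0.53, SE 0.24, limma adjusted p = 0.085), although its RNA averaged 114 TPM (the length-scaled abundance of transcripts) in CV and 371 in EN. Krt20, a keratin of villus cells, was not called either, with 3, 5, 9 and 9 against 7, 5, 3 and 6, while its RNA averaged 163 and 431 TPM. In the window of Hnf4g, 11 regions were tested, of which 2 were higher and 0 lower. Its most accessible promoter region had 83, 66, 73 and 87 in CV and 76, 57, 78 and 100 in EN, a difference of -0.01 (SE 0.17, adjusted p = 0.97). The RNA of Hnf4g averaged 48.1 TPM in CV and 444 in EN, and H3K27ac at that region averaged 15.3 in CV and 56.3 in EN (scores of that mark). The region at the other start site of the gene was not called either (-0.32, SE 0.17, adjusted p = 0.16). Of the 2 regions that rose, the first, intronic and 6724 bp from the nearest start site, had 22, 21, 29 and 22 in CV and 41, 49, 50 and 67 in EN (1.10, SE 0.18, adjusted p = 0.00033), and the second, intergenic and 28116 bp away, 2 in each CV library and 7, 9, 12 and 14 in EN (1.90, SE 0.35, adjusted p = 0.00071).

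At some loci of carriers and brush border enzymes nearly all linked regions were higher in EN. Slc15a1, the peptide carrier, and Dpp4, a brush border peptidase, each had 10 of 11 linked regions called higher and 0 lower. In Slc15a1 the largest rise was intronic, from 2, 7, 6 and 5 in CV to 75, 75, 91 and 105 in EN, with 22, 19, 23 and 19 in ENR (3.94, SE 0.28, limma adjusted p = 5.4e-07). In Dpp4 the largest was intronic too, from 6, 3, 6 and 7 to 51, 47, 52 and 71 (3.14, SE 0.24, adjusted p = 9.7e-07). Isx, a homeobox factor that controls carotenoid uptake, had 11 of 17 called higher. More regions, 22 of 36, were higher at Sfi1, and 9 of 17 at Pisd. Near-identical copies of parts of both genes exist in the mouse genome, so reads may be shared between copies and these counts are uncertain. Such loci were not limited to carriers and brush border enzymes. 4930534B04Rik had 10 of 11 linked regions called higher, Btbd3 8 of 9 and Mylk 8 of 13. Vps13d had 9 of 28 higher and 2 lower, and Atp1b1 8 of 19 higher and 1 lower. Of 14955 genes with a linked region, 4942 had at least 1 called higher, 3502 at least 1 called lower and 1076 both.

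Detoxification genes, which enterocytes use on absorbed compounds, followed the enterocyte genes. Of 31 promoters, 10 were higher (32.3%) and 2 lower (6.45%), Cyp1b1 and Cyp27a1. Cyp2b10, an oxidase, had 10, 9, 11 and 4 in CV, 23, 23, 27 and 21 in ENR and 82, 74, 68 and 92 in EN (3.14, SE 0.25, limma adjusted p = 1.4e-06). Adh4, an alcohol dehydrogenase, went from 1, 2, 2 and 2 to 16, 18, 23 and 34, and Cyp3a11, a drug-metabolizing oxidase, from 2, 2, 4 and 5 to 18, 11, 24 and 31. The groups did not overlap at any of the 3.

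All regions linked to the genes of a list were then counted. Near stem cell and Wnt target genes 66 of 161 regions were lower (41.0%) and 11 higher (6.83%), with a median difference of -0.64. Near nutrient carriers 68 of 159 were higher (42.8%) and 9 lower, near brush border genes 64 of 158 (40.5%) and 11, and near fat absorption genes 58 of 145 (40.0%) and 6. Near detoxification enzymes 42 of 125 were higher (33.6%) and 7 lower. Of all 41941 linked regions 19.1% were higher and 11.6% lower, with a median of 0.10. Under quantile normalization 14.3% of all linked regions were higher and 15.6% lower, and near nutrient carriers 36.5% and 8.18%. Genes of the cell cycle and DNA replication had 10 of 109 higher and 22 lower, and their 39 promoters split into 4 and 4, each 10.3%, against 14.6% and 10.2% of all promoter regions. Ccna2, the cyclin of S phase, had promoter scores of 171, 168, 179 and 159 in CV and 313, 343, 407 and 333 in EN (1.03, SE 0.09, limma adjusted p = 2.6e-06). Its RNA was 84.2 TPM in CV and 2.56 in EN, the opposite direction. Of the 37 genes of that list in the RNA table, all 37 had lower TPM in every EN library than in any CV library, as did 56.8% of all genes with a mean of at least 1 TPM.

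**Figure D3:**
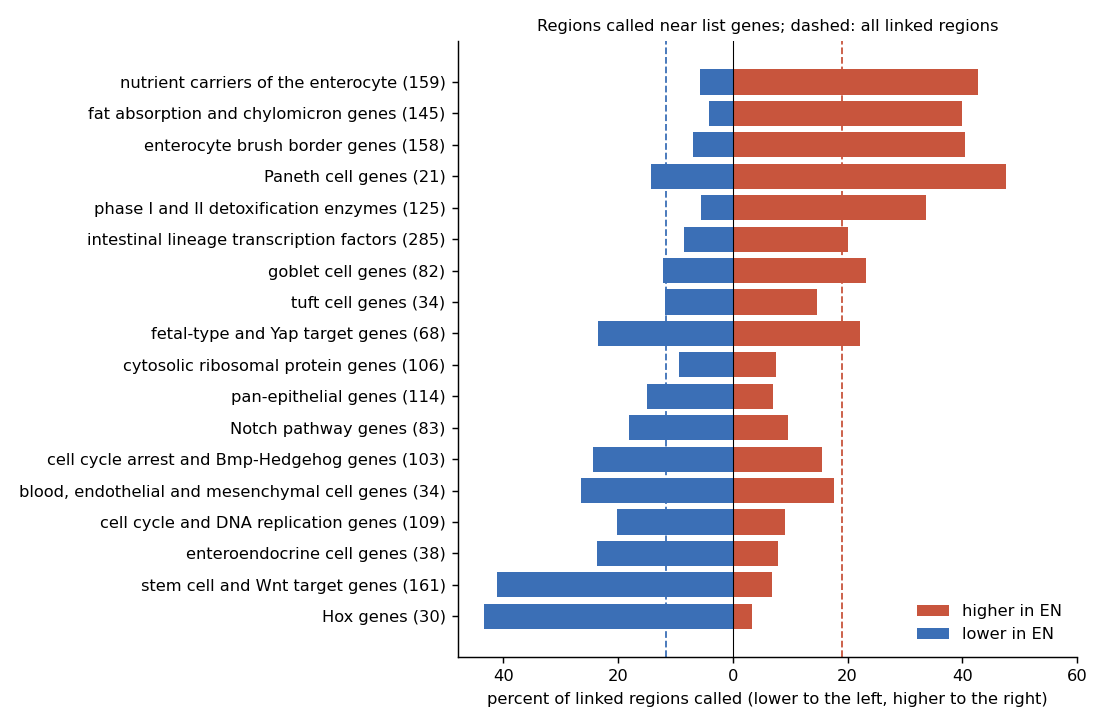
Percent of the regions linked to each gene list that were called higher (red, to the right) or lower (blue, to the left) in EN, with the number of linked regions in parentheses. Dashed lines mark all linked regions, 19.1% higher and 11.6% lower. Nutrient carrier, fat absorption and brush border genes lie at the top and stem cell and Wnt target genes and Hox genes at the bottom. Lists are ordered by the higher minus the lower share, and the longest red bar, for Paneth cell genes, rests on 21 regions.

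Secretory lineages gave mixed values. Of 11 promoters of goblet cell genes, 3 were higher and 2 lower, of 6 of Paneth cell genes 2 and 1, and of 5 of tuft cell genes 1 and 1. Most of the goblet calls depended on processing. Tff3 and Fcgbp lost theirs under quantile, library sum and median ratio scaling, and Agr2 and Atoh1 without the minimum mean score. Only Muc13 kept its call under every alternative, and whether it marks goblet cells alone was not tested. Over all promoter regions 14.6% were higher and 10.2% lower. Among all linked regions, Paneth cell genes had the largest higher share of the 18 lists, 10 of 21 (47.6%, 95% Wilson interval 28.3 to 67.6), with 3 lower. Of these 10, 4 lay at Guca2b, which encodes the peptide hormone uroguanylin, and 2 each at Lyz1, a lysozyme, Nod2 and Pnliprp2. Among the called promoters of this list, only that of Guca2b kept its call under every alternative. Whether Guca2b marks Paneth cells was not tested, so the share does not show that Paneth cell genes opened as a group. The RNA of Lyz1 went the opposite way, from 3280 TPM in CV to 1110 in EN. The call at its promoter was lost under quantile normalization and library sum scaling. It was kept in 3 of 8 fits with 1 library left out. Goblet cell genes had 19 of 82 linked regions higher (23.2%) and tuft cell genes 5 of 34 (14.7%), against 19.1% of all. In RNA, 11 of 13 goblet cell genes and 6 of 7 tuft cell genes had all 4 EN libraries above all 4 CV libraries. So did 7 of 14 Paneth cell genes. In the same order, 1, 1 and 5 genes had all EN libraries below. Over all genes with a mean of at least 1 TPM, 25.9% were above and 56.8% below. The list totals were instead all list genes in the RNA table. Of 9 promoters of enteroendocrine genes 0 were higher and 3 lower. Isl1, a homeobox factor of hormone cells, had 72, 45, 50 and 49 in CV, 33, 13, 22 and 14 in ENR and 8, 9, 10 and 8 in EN (-2.48, SE 0.19, limma adjusted p = 1.1e-06). Pax6, a second such factor, had 132, 109, 94 and 96 in CV, 16, 17, 16 and 17 in ENR and 17, 22, 24 and 27 in EN (-2.21, SE 0.17, adjusted p = 1.1e-06), and the ENR values were no higher than those of EN. For the third, Insm1, the adjusted p was 0.0097, and 0.017 with the replicate block. Isl1 and Pax6 have no RNA value here. All 11 enteroendocrine genes of the list with an RNA value were higher in every EN library than in any CV library, among them Chga, a granule protein of hormone cells, at 2.40 TPM in CV and 158 in EN.

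Hox genes, which set position along the body axis, were lower in EN at some of their promoters. Of 16 promoters tested 7 were lower (43.8%, against 10.2% of all promoter regions) and 0 higher, and of 30 linked regions 13 were lower (43.3%) and 1 higher. Hoxc6 had 29, 33, 28 and 43 in CV, 12, 7, 7 and 11 in ENR and 10, 5, 7 and 4 in EN (-2.24, SE 0.26, limma adjusted p = 2e-05). Hoxc5 had 13, 17, 13 and 18 in CV, 3, 4, 3 and 2 in ENR and 4, 5, 1 and 1 in EN (-2.28, SE 0.40, adjusted p = 0.00045). At both the ENR values overlapped those of EN. The promoters of Col1a1, a collagen of fibroblasts, and Vim, a filament of mesenchymal cells, were also lower in EN, with 31, 29, 36 and 44 against 13, 10, 8 and 10 and with 24, 25, 15 and 23 against 10, 10, 10 and 9. The summed score of the 5 tested promoters of the 27 blood, endothelial and mesenchymal genes was 108 to 154 in CV and 48 to 76 in EN. The RNA of 12 of these genes summed to 5.76 to 7.51 TPM in CV and 20.6 to 25.4 in EN, with Col1a1 at 0.232 and 0.0388 TPM, and Ptprc, the pan-leukocyte marker, at 0.0103 and 0.667. The part of other cell types in these values was not tested. Epcam, the epithelial surface marker, was at 1460 TPM in CV and 909 in EN.

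The 8 largest rises and 8 largest falls were taken among called regions with a mean score of at least 20 whose groups did not overlap. All 8 rises lay outside promoters. The region of chromosome 3 from 143965634 to 143965988, intergenic and 97627 bp from the start site of Lmo4, had 1, 1, 1 and 0 in CV, 5, 11, 15 and 13 in ENR and 39, 54, 81 and 76 in EN (5.18, SE 0.31, limma adjusted p = 2.3e-07). The Sdccag8 intron region shown above had 4, 5, 2 and 1 in CV, 26, 25, 30 and 20 in ENR and 113, 124, 124 and 118 in EN (5.04, SE 0.29, adjusted p = 1.7e-07). The other rises lay nearest to Smad2, Slc37a2, Esrrg, Cdcp1, Ppm1h and Maf, with differences from 4.34 to 4.70. In each of the 8 the ENR mean lay between the others. The 4 regions near Sdccag8, Esrrg, Ppm1h and Maf hold an HNF4 match.

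The largest falls differed among themselves in ENR. The Peg3 intron region, in an imprinted gene, had 101, 132, 103 and 97 in CV, 6, 3, 4 and 6 in ENR and 3, 2, 8 and 4 in EN (-4.49, SE 0.28, limma adjusted p = 2.8e-07). Regions nearest to Slc39a10, Zfp503 (2 regions) and Plod2, a collagen-modifying enzyme, behaved likewise, with ENR means of 4.75, 6.00, 3.00 and 13.0 beside CV means of 65.0, 67.2, 40.0 and 116. In contrast, a region in an intron of Ccdc46 had 44, 46, 55 and 57 in CV, 35, 33, 47 and 55 in ENR and 1, 2, 2 and 2 in EN (-4.24, SE 0.23, adjusted p = 1.3e-07). An intergenic region nearest to Lphn2 had a CV mean of 105, an ENR mean of 90.0 and an EN mean of 6.25. Between these, a region 45141 bp from the start site of Slc1a2 had means of 83.2, 35.2 and 5.25. The sequences of the Peg3 and Lmo4 regions, shown above, hold no HNF4 or TCF/LEF match.

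At the median called region, ENR lay between CV and EN. Its position was computed from the means of log2(score + 1), with 0 at the CV mean and 1 at the EN mean. The median position was 0.43 for regions higher in EN (quartiles 0.22 and 0.65) and 0.37 for regions lower in EN (0.070 and 0.66). Of the regions lower in EN, 2507 (40.0%) were at 0.25 or less in ENR, near CV, as at Ccdc46, and 1185 (18.9%) at 0.75 or more, near EN, as at Peg3. ENR was above CV at 1251 of them (20.0%), as at the intronic Lgr5 region. Of the regions higher in EN, 2879 (28.0%) were at 0.25 or less and 1729 (16.8%) at 0.75 or more. The positions share the CV and EN values that made the calls and are given without a test.

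RNA of the same genes moved with promoters that changed 2-fold. The RNA table covers only transcripts whose proteins the study had quantified, and 8496 genes with a mean of at least 1 TPM were used. For 25.9% of them all 4 EN libraries lay above all 4 CV libraries and for 56.8% all below. Of 133 genes whose promoter rose at least 2-fold, 104 had RNA above (78.2%) and 18 below. Of 176 genes whose promoter fell at least 2-fold, 159 had RNA below (90.3%) and 11 above. For all promoters called higher, most of them by less than 2-fold, the shares were 33.2% above and 50.6% below, nearer to the background. Genes nearest to distal regions that rose at least 2-fold had RNA above in 46.3% and below in 37.7%, against 31.8% and 51.7% of all genes nearest to a tested distal region. For distal falls of at least 2-fold they were 25.8% and 60.9%.

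For each histone mark, scores of 3 libraries per culture were used and are described without a test. The labels list 4 libraries of each mark and culture, and 5 of H3K27ac in CV. The others were not analysed here. H3K27ac, a mark of active enhancers and promoters, had mean scores per library of 9.50 to 10.8 in CV and 14.7 to 17.7 in EN at regions that rose at least 2-fold in ATAC, and of 12.7 to 13.9 in CV and 7.19 to 8.47 in EN at those that fell. All 3 EN values lay above all 3 CV values in 22.7% of the regions that rose and 2.56% of those that fell, against 17.8% of all tested regions, and all below in 2.57% and 25%, against 8.7%. Over all tested regions H3K27ac was also higher in EN, at 28.9 to 30.9 against 21.6 to 23.3 in CV. At the regions that rose, ENR had 7.24 to 9.39, below all 3 CV libraries. H3K4me3, a promoter mark, was above in 9.9% of the regions that rose and below in 18.7% of those that fell, against 8.52% and 5.86% of all. H3K27me3, the Polycomb mark of silenced chromatin, differed in pattern. It was above in 13.6% of the regions that fell and in 4.27% of those that rose, against 8.2% of all, and below in 1.54% and 4.7%, against 2.91%. At regions that fell, its mean score was 7.38 to 9.05 in CV, 9.29 to 11.9 in ENR and 10.9 to 12.4 in EN, and at those that rose 9.48 to 11.7 in CV and 9.36 to 10.9 in EN. Its scores cover regions extended to 1000 bp. Lef1 and Ascl2 are given as examples of promoters with both changes and are not a full list. At the Lef1 promoter H3K27me3 averaged 13.3 in CV and 45.7 in EN. At that of Ascl2 it averaged 6.33 and 24.0, while H3K27ac averaged 46.3 and 10.0. At the Lgr5 promoter H3K27ac averaged 80.7 in CV and 8.67 in EN.

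**Figure D4:**
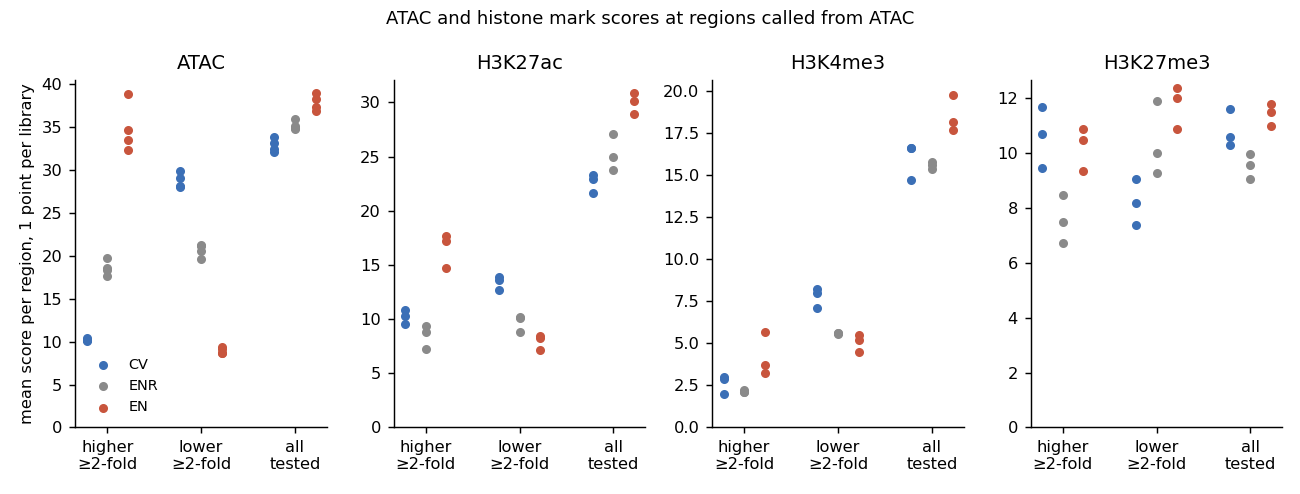
Mean score per region of ATAC, H3K27ac, H3K4me3 and H3K27me3 (vertical axes, from 0), 1 point per library, at regions that rose or fell at least 2-fold in ATAC and at all tested regions. In ATAC the points follow from the choice of regions. From CV to EN, H3K27ac moves the same way as ATAC in both sets, ENR lies below CV in it at the regions that rose, and H3K27me3 is lowest in CV at the regions that fell.

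Short motifs were counted in the central 300 bp of each region. The HNF4 motif CAAAGTNCA was in 11.1% of regions called higher (95% Wilson interval 10.5 to 11.7), 3.28% of those called lower (2.86 to 3.75) and 6.08% of all tested. Seen from the motif, 1141 of 3120 regions with it were higher (36.6%) and 205 lower (6.57%), against 19.0% and 12.6% of the regions without it. The same held near and far from start sites, with 32.2% and 36.9% of the regions with the motif higher, against 14.4% and 20.7% of those without. No other motif of the 12 had so large a ratio between regions called higher and lower, 3.38, with HNF1 (GTTAATNAT) next at 1.46. The TCF/LEF motif CTTTGAT was in 8.06% of regions lower, 6.39% of those higher and 5.47% of all. Of the 2806 regions with it, 415 also held the HNF4 motif, and 137 of these were higher and 39 lower. Without the HNF4 motif, 520 of 2391 regions with the TCF/LEF motif were higher and 465 lower. AP-1 (TGANTCA) was in 25% of regions lower and 17.9% of those higher, against 18.2% of all. SOX (ACAATGG) was in 5.39%, 3.37% and 3.55%, and CDX (CAATAAA) in 9.51%, 6.87% and 6.99%. The motif of GATA factors, AGATAAG, was more frequent in both, 10.0% of regions higher and 8.94% of those lower against 7.57% of all. CTCF (CNAGGGGGC) was less frequent in both, 0.914% and 1.77% against 2.24%, and regions with it had a median difference of -0.017. FOX (TGTTTAC) was in 6.3% of regions lower and 4.92% of those higher against 5.03% of all, KLF/SP in 18.4% and 14% against 15.8%, ETS (CCGGAAG) in 4.33% and 2.9% against 4.02%, and TEAD in 5.16% and 5.55% against 4.83%. A match is a string of letters and no evidence of binding.

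**Figure D5:**
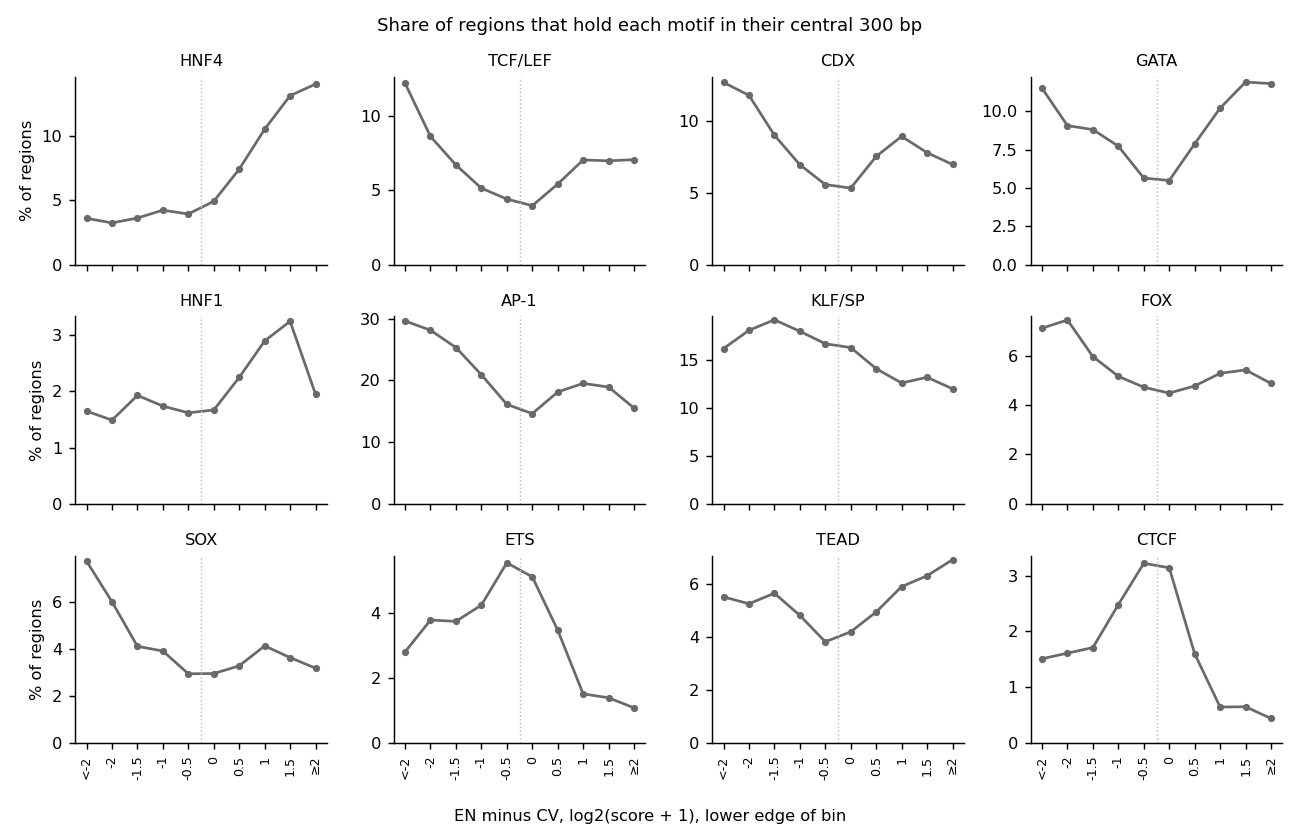
Share of regions with each motif in their central 300 bp (vertical axes, percent, from 0) in bins of the EN minus CV difference (horizontal axes, log2(score + 1), labelled by the lower edge of the bin). The dotted line marks a difference of 0. The HNF4 share climbs with the size of the rise, AP-1, TCF/LEF and SOX are most frequent at the largest falls, and CTCF peaks near 0.

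Hnf4g itself was mapped by ChIPmentation in 1 library per culture, so its values have no replicate check, and the libraries held 84340 (CV), 352600 (ENR) and 1816497 (EN) reads in regions. Of these reads 15.5% in CV (95% Wilson interval 15.3 to 15.8), 16% in ENR and 21.2% in EN (21.2 to 21.3) fell in regions called higher, which cover 15.4% of the length of all regions. Regions called lower, with 9.37% of the length, held 7.29% of the reads in CV, 7.4% in ENR and 5.92% in EN. As RPM per kb (reads relative to all reads in regions and to length), regions called higher with an HNF4 match had 44.1 in CV, 43.9 in ENR and 45.5 in EN, and those without one 25.6, 26.6 and 36.3. Regions not called that hold the match had 65.9, 57.4 and 39.0. The densities are relative to reads in all regions of a library and so do not show how much Hnf4g was bound, and the intervals cover counting error only.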

How the data were processed

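ATAC-seq of CV and EN organoids (4 libraries each) was re-analysed. For ATAC and histone marks the authors deposited 1 score for each region of the merged peaks, that is its reads normalized between libraries and rounded to whole numbers, so raw depth is unknown and no count test was used. Reads had been aligned to mm9 with BWA, duplicates were removed with Picard and mitochondrial reads were dropped, and peaks were called per sample with MACS2 2.0, per the submitters' notes and the study's methods. For RNA the authors deposited TPM values from kallisto 0.43.0 (per the labels) beside expected counts, which were not used here. For Hnf4g they deposited raw counts of reads per region.

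Log2(score + 1), a pseudocount of 1, was fitted with limma 3.58.1 (with its intensity trend) in R 4.3.3 on the 8 libraries, over 51385 regions with a mean score of at least 5, and called at a Benjamini-Hochberg adjusted p under 0.01. Tested on simulated data, this comparison over 51385 regions found 42 of 100 regions changed 2-fold and 95 of 100 changed 4-fold, with 0 false calls. The simulation changed far fewer regions than the 16556 called in the data. It also gave all regions the same relative spread beyond counting error and no replicate effect. These rates may therefore not hold for the data. Same-numbered CV and EN libraries deviated together from their group means (r from 0.12 to 0.63 over 4 pairs). The 12 pairs with different numbers ranged from -0.644 to 0.353 and overlapped these. For every CV library the same-numbered EN library had the highest r. The margin was small for replicates 3 (0.378 against 0.351) and 4 (0.397 against 0.353). EN replicate 2, however, had a higher r with CV replicate 1 (0.256) than with CV replicate 2 (0.121). The replicate number comes from the labels, and a pairing of samples by it is not established. A fit with the replicate block was run beside the main one. Start sites, exons and introns came from the GENCODE annotation of NCBIM37. Of 519 genes in 18 lists, 507 were matched to it. The lists, motifs and the genes named were chosen with earlier results of these data known. The rule named list promoters with the largest called differences, genes the study names, the 8 largest rises and falls, the genes with most called regions, and all regions around Alpi, Lgr5 and Hnf4g. Values of single regions at Axin2, Slc15a1, Dpp4 and Sdccag8 were picked after they were seen. So were the RNA and histone mark values of single genes. TPM values, histone mark scores and Hnf4g reads were described without tests. No column of per-sample values was left unmapped. Alternatives changed the pseudocount, filter, scaling, trend, samples, weights, block, threshold, start site and gene distances and motif window.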

Additional observations from a re-analysis of the deposited data

Results flagged for a closer look

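In 20 of 274 groups of 4 values, at named regions and for library totals, 1 library lay far from the other 3 by Dixon's test at the 95% level (critical value 0.829), 7.3% where chance gives about 1 in 20. Many were whole-number scores that differed by a few units. In EN, these were Ascl2 in replicate 2 (24, the others 13 to 14), Ctgf in replicate 2 (25, the others 15 to 16), Bmp4 in replicate 1 (7, the others 2), Cyp27a1 in replicate 2 (13, the others 10), Rpl4 in replicate 3 (12, the others 16), Rps26 in replicate 1 (30, the others 53 to 57), Vim in replicate 4 (9, the others 10), Zbtb7b in replicate 2 (112, the others 80 to 85), the Ccdc46 region in replicate 1 (1, the others 2) and the larger Zfp503 region in replicate 4 (2, the others 3). In CV, they were Adh4 in replicate 1 (1, the others 2), Krt18 in replicate 4 (31, the others 38 to 39), the Lmo4 region in replicate 4 (0, the others 1), the Esrrg region in replicate 1 (3, the others 2), an intronic Lgr5 region in replicate 2 (10, the others 8), and regions of the Hnf4g window with 17 in replicate 2 (the others 28 to 30), 4 in replicate 4 (the others 2), 29 in replicate 3 (the others 21 to 22) and 4 in replicate 3 (the others 3). CV replicate 4 had 9690 regions at a score of 0, the other CV libraries 5263 to 5691 and the EN libraries 6548 to 10490.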

How the results depend on the processing

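Of 118 named regions that were called, 79 kept call and direction under every alternative run, and 1 turned, E2f3, to -0.003 under quantile normalization. Under the 3 other scalings 99 of the 118 stayed called, and without each library in turn 84. The replicate block gave 11302 regions higher and 7212 lower, and it ended the call at 2 named regions, Insm1 and Ccnd1 (limma adjusted p = 0.017 and 0.013), and at no other. Of the 16 named regions not called, 2 were called under at least 1 alternative. Leaving out 1 library gave 7741 to 10652 regions higher and 4396 to 6694 lower, the fewest without EN replicate 4 and CV replicate 2, and the share of the score within 500 bp of a start site differed by -2.315 to -1.178 percentage points. A minimum mean score of 20, which tests fewer regions, left 5295 higher and 2734 lower. An adjusted p under 1e-05 left 1072 and 443, and one under 0.05 gave 9454 lower. With 1000 bp in place of 500 bp, 20.6% of regions higher and 24.0% of those lower were near a start site. With a gene distance of 20 kb, 5.29% of regions near lineage transcription factors and Ihh were lower. Under quantile normalization 13.0% were, and 35.8% of cell cycle regions were lower, while 8.74% of cell cycle arrest, Bmp and Hedgehog regions and 3.51% of pan-epithelial regions were higher. The ratio of motif shares between regions higher and lower moved within the central 100 bp to 4.12 (HNF4), 0.692 (TCF/LEF), 1.25 (GATA), 0.526 (SOX) and 1.32 (TEAD), and over whole regions to 2.92 (HNF4), 0.819 (CDX) and 0.89 (ETS). The cause was not tested for these.

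Differences near 0 that were not called changed sign. The Hnf4g promoter region was at 0.128 with array weights and from -0.139 to 0.128 with 1 library left out, the second Hnf4g region at 0.049 with array weights and from -0.676 to 0.098 with 1 library left out (the highest without EN replicate 1), and the fifth at -0.111 (quantile), -0.152 (library sum), -0.072 (median ratio), and from -0.038 to 0.11 with 1 library left out. Lcor was at -0.199, -0.185 and -0.103 under the same scalings, at -0.035 with array weights, and from -0.121 to 0.077 with 1 library left out. Scores carry no raw depth, so the counting error of low scores is unknown.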

Other observations

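Regulators of intestinal identity are described here at their promoters. The list holds lineage transcription factors and also Ihh, which is not one. Of its 34 promoters 5 were higher in EN (14.7%) and 3 lower (8.82%), near the 14.6% and 10.2% of all tested regions within 500 bp of a start site. The values that follow are of single genes. Cdx2, a homeobox factor of intestinal identity, had scores of 60, 78, 68 and 86 in CV, 175, 168, 183 and 182 in ENR and 113, 120, 116 and 143 in EN, so that ENR lay above both (EN minus CV 0.75 on the log2(score + 1) scale, limma adjusted p = 0.00058). Ihh, a hedgehog ligand of differentiated epithelium, rose from 21, 28, 33 and 30 to 82, 106, 54 and 86 (1.5, adjusted p = 7.8e-05). Foxa2, a forkhead factor, fell from 123, 123, 99 and 114 to 77, 60, 69 and 67 (-0.74, adjusted p = 0.00034), while Foxa1, its paralog, had 82, 75, 64 and 61 in CV and 114, 92, 117 and 131 in EN (0.68, adjusted p = 0.0016). The RNA of Cdx2 and Foxa1 was lower in every EN library than in any CV library, at 136 against 186 TPM and at 1.33 against 3.04 TPM.

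Of 19 Notch pathway promoters 1 was higher (5.26%) and 2 were lower (10.5%), the latter near the 10.2% of all promoter regions. The higher one was Jag1, a Notch ligand, with 324, 241, 199 and 232 in CV and 294, 350, 363 and 376 in EN (0.49, limma adjusted p = 0.0072), where the groups overlapped and the call was lost under library sum scaling (adjusted p = 0.069). Lfng, a glycosyltransferase that modifies Notch receptors, had 73, 73, 82 and 76 in CV and 23, 22, 26 and 24 in EN (-1.64, limma adjusted p = 1.9e-06), and Jag2, another ligand, 76, 93, 79 and 62 against 31, 24, 33 and 26 (-1.41, adjusted p = 2.2e-05). Of 16 promoters of pan-epithelial genes 1 was higher (6.25%) and 3 lower (18.8%). The tight junction gene Cldn15 had promoter scores of 22, 26, 27 and 25 in CV and 9, 6, 9 and 6 in EN, with RNA of 187 and 792 TPM, so that promoter and RNA differed in direction. Of 70 promoters of cytosolic ribosomal protein genes 6 were higher (8.57%) and 5 lower (7.14%), both shares below those of all promoter regions, 14.6% and 10.2%. Of 13 promoters of fetal-type and Yap target genes 3 were higher (23.1%) and 4 lower (30.8%), and of 19 of cell cycle arrest, Bmp and Hedgehog genes 3 (15.8%) and 6 (31.6%).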
